A study of Arabidopsis thaliana with 12 samples.

Results

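The transcription factors through which abscisic acid (ABA) acts in Arabidopsis thaliana were followed at 10 loci: ABI3, ABI4, ABI5, EEL, AREB3, ABF1, ABF2, ABF3, ABF4 and VAL1. They were taken by locus identifier from the authors' count tables. All 10 were present in both tables, among 19714 genes listed in both. The rows were taken by identifier and not by a measured value, but the set was chosen with earlier results of these data known. On the TAIR10.1 assembly, ABI3 (AT3G24650) lies at chr3:8997370-9001185, ABI4 (AT2G40220) at chr2:16796247-16797585, ABI5 (AT2G36270) at chr2:15204659-15207636 and EEL (AT2G41070) at chr2:17129753-17132386. AREB3 (AT3G56850) lies at chr3:21046234-21048614, ABF1 (AT1G49720) at chr1:18400003-18402628 and ABF2 (AT1G45249) at chr1:17165125-17167924. ABF3 (AT4G34000) lies at chr4:16295334-16298285, ABF4 (AT3G19290) at chr3:6687042-6690123 and VAL1 (AT2G30470) at chr2:12980428-12985277.

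ABA accumulates in maturing seeds and in plants short of water. It stops clade A protein phosphatases from holding SnRK2 kinases inactive, and the released kinases phosphorylate bZIP factors that bind the ABA-responsive element (ABRE) of target promoters. ABI5, EEL and AREB3 are the bZIP factors best known from seeds, and ABF1 to ABF4 those best known from vegetative tissue. ABI3, a B3-domain factor that binds the RY element, and ABI4, an AP2-domain factor, act with ABI5 in maturing and germinating seeds, where ABI5 can arrest growth after germination. VAL1, named HSI2 in the reference annotation, is a B3-domain repressor that recognises the RY element and brings Polycomb proteins to embryo genes after germination.

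RNA was taken from seedlings grown for 5 days in liquid culture (50 ml of medium in flasks of 125 ml, at 21 °C, with 16 h of light and 8 h of dark). Wild type (WT) was Col-0 and atg5 was the insertion line SALK_020601C, given as 1 line, for ATG5, a protein needed to build autophagosomes. The control medium (NM) held 0.5X Murashige salts and 0.5% sucrose, which the water stress medium (WSM) shared, with 2.5% glycerol and 0.5% alginic acid added. Glycerol is also a carbon source, so WSM differed from NM in more than water availability. The count columns gave 3 libraries of WT NM (numbered 2, 3 and 4), 2 of WT WSM (3 and 4), 2 of atg5 NM (1 and 3) and 3 of atg5 WSM (1, 2 and 3). Nothing in the labels says whether libraries of a group came from separate cultures, so p-values measure only the spread between these libraries.

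The libraries held 8928632 to 24022759 counts, of which 19.0% to 65.5% lay in rRNA regions. Library 1 of atg5 WSM was the shallowest, with 3076066 counts outside these regions. It and WT NM library 2 had the largest rRNA-region shares, at 65.5% each. ATG5 itself was counted at 20.2 to 30.8 CPM (reads of a gene relative to the TMM-scaled library size, as edgeR's cpm function gives it) in WT libraries and at 20.5 to 31.7 CPM in libraries labelled atg5, so it did not check the genotype labels, and "atg5" below means the label. PREP1, a peptidase gene on the arm that carries ABF4, had 0 to 4 counts in both atg5 NM libraries and in atg5 WSM library 2, but 349 and 2412 counts in atg5 WSM libraries 1 and 3. Both NM libraries and 1 of 3 WSM libraries labelled atg5 therefore shared a state that the other 2 did not have, and this state and the medium cannot be told apart in full. Some results that rest on those 2 libraries are also given without them, but not all.

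The 7 bZIP members share their DNA-contacting basic region, and the coding bases of that region show how close the paralogs are. The bases below (RefSeq, TAIR10.1) encode that region, with the codons of its invariant asparagine and arginine in capitals, and lie at chr2:15205453-15205506 on the minus strand for ABI5, chr2:17131819-17131872 on the plus strand for EEL, chr3:21047166-21047219 on the minus strand for AREB3, chr1:18401759-18401812 on the plus strand for ABF1, chr1:17166354-17166407 on the minus strand for ABF2, chr4:16297276-16297329 on the plus strand for ABF3, chr3:6689009-6689062 on the plus strand for ABF4.
ABI5: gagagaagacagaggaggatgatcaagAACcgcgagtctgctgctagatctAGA
EEL: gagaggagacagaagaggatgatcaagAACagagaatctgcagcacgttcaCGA
AREB3: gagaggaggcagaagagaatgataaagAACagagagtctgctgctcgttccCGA
ABF1: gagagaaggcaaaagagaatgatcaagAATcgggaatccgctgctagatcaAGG
ABF2: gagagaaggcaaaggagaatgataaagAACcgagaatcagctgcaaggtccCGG
ABF3: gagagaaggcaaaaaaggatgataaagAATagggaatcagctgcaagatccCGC
ABF4: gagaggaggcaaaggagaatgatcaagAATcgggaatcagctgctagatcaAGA
Over these 54 bases, ABF1 and ABF4 were the closest pair, with 92.6% identity, followed by EEL and AREB3 with 87.0%. The lowest identity was 74.1%, found between EEL and ABF1 and between ABI5 and ABF3.

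ABRE and RY sequences near a gene's start are the letters these factors are known to read, so the 250 bases before the annotated start were searched on both strands. The ABRE core was searched as ACGTG and RY as CATGCA. Their palindromic forms count once per strand, and RY matches may overlap each other. The ABRE core was present before 4 of the 10 members, ABI5, ABF1, ABF3 and ABF4, against 22.9% of 27438 promoters of the same length. ABI5 had 7 matches and ABF1 had 2. RY was present before 1 of the 10, VAL1, which had 4 matches, against 8.43% of promoters. Of 16 seed target genes examined below, 11 held the ABRE core and 10 held RY. Of 22 vegetative ABA-responsive targets, 11 held the ABRE core and 1 held RY. A match is a string of letters and not a measured binding site.

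Shown are the 2 members with the most matches and 3 target genes whose levels are described below: EM6 and LEA4-5, which encode late embryogenesis abundant proteins, and CRC, which encodes a cruciferin storage protein. Capitals mark the ABRE core in ABI5, EM6 and LEA4-5, and RY in VAL1 and CRC. The stretches (RefSeq, TAIR10.1) lie at chr2:15207637-15207886 on the minus strand for ABI5, chr2:12985278-12985527 on the minus strand for VAL1, chr2:16780369-16780618 on the minus strand for EM6, chr5:2090431-2090680 on the minus strand for LEA4-5, chr4:14087306-14087555 on the plus strand for CRC.
ABI5: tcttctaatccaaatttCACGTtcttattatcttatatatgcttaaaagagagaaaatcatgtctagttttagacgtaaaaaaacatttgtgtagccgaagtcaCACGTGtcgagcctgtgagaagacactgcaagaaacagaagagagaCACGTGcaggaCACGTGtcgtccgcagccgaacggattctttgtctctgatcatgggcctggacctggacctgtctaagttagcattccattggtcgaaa
VAL1: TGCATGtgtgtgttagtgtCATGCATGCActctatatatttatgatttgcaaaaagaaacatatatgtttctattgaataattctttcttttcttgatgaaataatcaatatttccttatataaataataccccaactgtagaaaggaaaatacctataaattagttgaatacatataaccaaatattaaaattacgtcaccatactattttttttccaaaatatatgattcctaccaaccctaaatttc
EM6: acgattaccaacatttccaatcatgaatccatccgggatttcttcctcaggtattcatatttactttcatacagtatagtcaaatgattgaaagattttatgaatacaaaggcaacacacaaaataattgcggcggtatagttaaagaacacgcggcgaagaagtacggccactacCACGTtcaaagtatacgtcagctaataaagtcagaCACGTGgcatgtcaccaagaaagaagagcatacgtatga
LEA4-5: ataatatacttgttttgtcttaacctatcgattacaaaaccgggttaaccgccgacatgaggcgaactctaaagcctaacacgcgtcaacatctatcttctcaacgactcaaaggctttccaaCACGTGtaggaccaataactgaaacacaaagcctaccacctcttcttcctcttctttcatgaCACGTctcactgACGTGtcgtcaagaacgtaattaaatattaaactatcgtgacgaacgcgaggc
CRC: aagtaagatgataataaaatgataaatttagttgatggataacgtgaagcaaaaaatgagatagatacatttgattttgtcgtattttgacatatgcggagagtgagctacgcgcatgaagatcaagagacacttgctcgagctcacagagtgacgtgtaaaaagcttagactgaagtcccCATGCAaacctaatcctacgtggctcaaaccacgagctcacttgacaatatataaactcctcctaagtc
In ABI5, 6 of the 7 matches were the paired strands of 3 palindromes, which began 146, 100 and 89 bases before the start. In VAL1, 3 of the 4 matches overlapped in a single run that began 231 bases before the start.

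**Figure D1:**
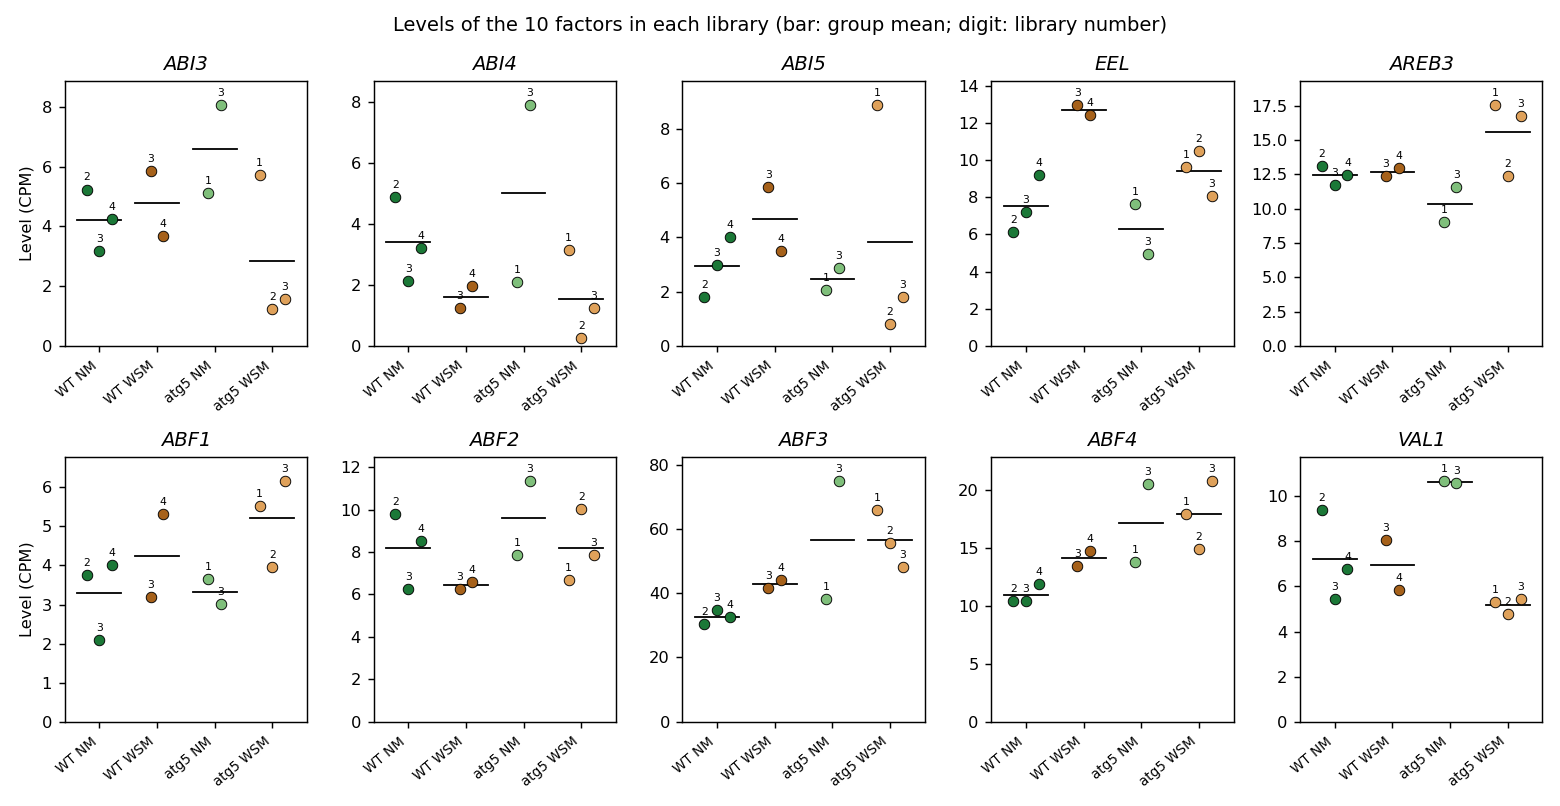
Level of each factor in every library, in CPM on a linear axis from 0, by group. Points are libraries with their numbers and bars are group means. In atg5 WSM, library 1 stands above libraries 2 and 3 for ABI3, ABI4 and ABI5, and the VAL1 points of atg5 NM lie above those of atg5 WSM.

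Levels between genes were compared as CPM per kilobase of exon. ABF3 had the highest level of the 10 in every group, with 13.3 ± 0.908 in WT NM (SD, n = 3), 17.5 ± 0.720 in WT WSM (SD, n = 2), 23.1 ± 10.6 in atg5 NM (SD, n = 2) and 23.1 ± 3.63 in atg5 WSM (SD, n = 3). In each group its lowest library lay above the highest library of the next member. AREB3, EEL and ABF4 came next, with means over all libraries of 6.71, 5.87 and 5.70 CPM per kilobase. Their ranges overlapped in WT NM, atg5 NM and atg5 WSM, while in WT WSM the order EEL, AREB3, ABF4 was separate at each step. ABF2, ABF1, VAL1, ABI4, ABI5 and ABI3 followed, with means of 3.15, 2.37, 2.13, 2.10, 1.64 and 1.41. Most neighbours among these 6 overlapped. The exceptions were VAL1 above ABI3 and ABF1 above ABI5 in atg5 NM. Among all genes in both tables, ABF3 stood at the 81.1 percentile of this level and ABI3 at the 12.8 percentile. Counts behind the values ran from 8 (ABI4 in atg5 WSM library 2) to 1687 (ABF3 in the same library).

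The 3 ABI genes varied most between libraries. The highest library was 30.0 times the lowest for ABI4, 11.2 times for ABI5 and 6.43 times for ABI3, each on the CPM scale. For the other 7 members this ratio was between 1.82 (ABF2) and 2.94 (ABF1).

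How the members differed between the media in wild type was asked first. edgeR's quasi-likelihood test called 0 of the 10 members at an adjusted p under 0.05, against 5.89% of all genes tested. One member, EEL, had an unadjusted p under 0.05, and DESeq2 also called 0. Groups did not overlap for 4 of the 10, EEL, ABI4, ABF3 and ABF4, against 56.8% of all genes. The median log2 fold change was 0.27 over the members and 0.02 over all genes.

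EEL, which binds the EM1 promoter in competition with ABI5, was at 6.13, 7.23 and 9.18 CPM in WT NM and at 13.0 and 12.4 CPM in WT WSM. Both WSM libraries lay above all 3 NM libraries. The log2 fold change was 0.75 ± 0.27 (SE), with an adjusted p of 0.124 by edgeR's quasi-likelihood test. With only the wild-type libraries fitted it was 0.74 with an adjusted p of 0.0158 by the same test, and the authors' deposited table gives 0.74 with an adjusted p of 0.0138. ABI4 was at 4.91, 2.15 and 3.21 CPM in WT NM and at 1.23 and 1.97 CPM in WT WSM. The groups did not overlap, but the NM libraries were spread over a wider range than the gap between groups. The log2 fold change was -1.07 ± 0.79 (SE), with an adjusted p of 0.453 in the same edgeR test. The authors' deposited table gives -1.07 with an adjusted p of 0.0486.

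ABI5 was at 1.80, 2.98 and 4.02 CPM in WT NM and at 5.86 and 3.49 CPM in WT WSM. ABI3 was at 5.23, 3.18 and 4.25 CPM in WT NM and at 5.86 and 3.67 CPM in WT WSM. Both genes overlapped between the media, with log2 fold changes of 0.65 ± 0.74 and 0.18 ± 0.54 (SE). ABF3, the most abundant member, was at 30.3, 34.8 and 32.6 CPM in WT NM and at 41.5 and 43.9 CPM in WT WSM. ABF4 was at 10.4, 10.4 and 11.9 CPM in WT NM and at 13.4 and 14.7 CPM in WT WSM. Both had higher levels in the 2 WSM libraries, with log2 fold changes of 0.39 ± 0.27 and 0.37 ± 0.23 (SE) and adjusted p of 0.418 and 0.374 in the same edgeR test. ABF4 is uncertain, since 28.9% of its exonic bases lie inside the antisense gene AT3G03815 and counting by strand is not stated. For AREB3, ABF1, ABF2 and VAL1, log2 fold changes lay between -0.35 and 0.37 and the groups overlapped.

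**Figure D2:**
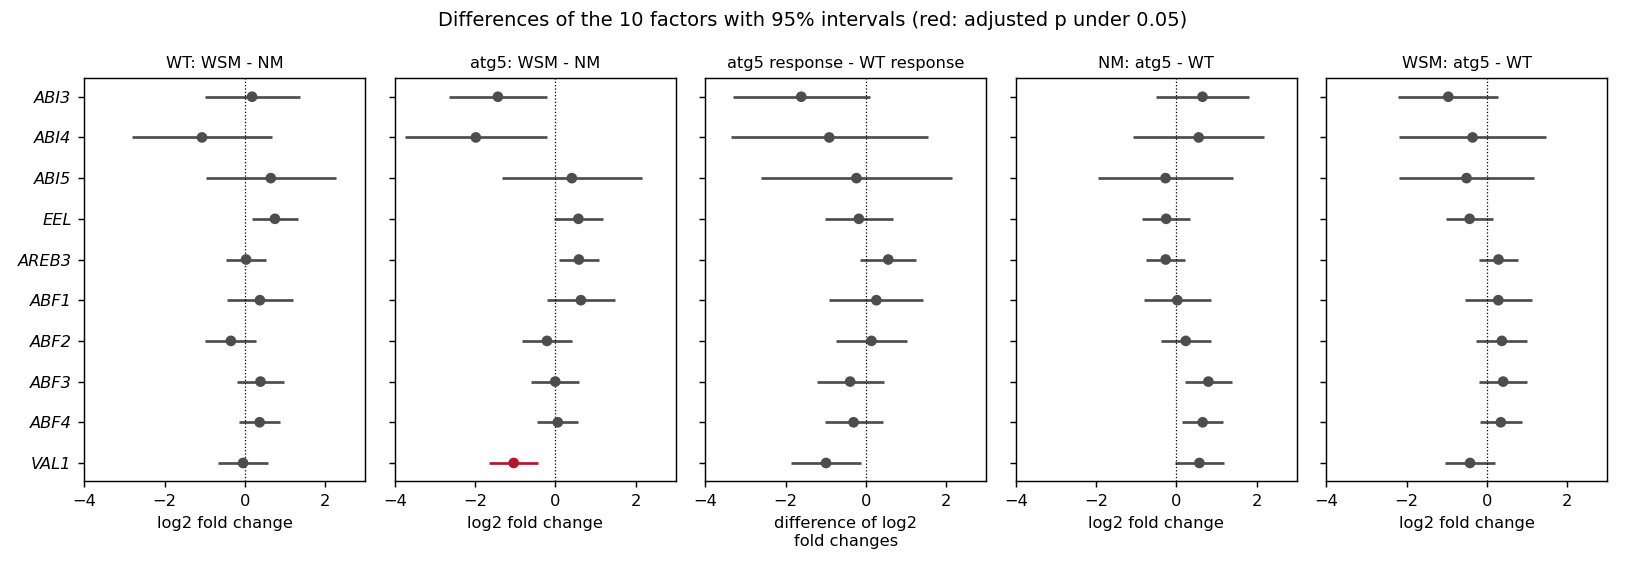
Log2 fold changes of the 10 factors (points) with 95% intervals (lines) in 5 comparisons, from 1 edgeR fit. The red point is the call with an adjusted p under 0.05, VAL1 in atg5 WSM against NM at -1.04. Intervals are widest for ABI3, ABI4 and ABI5.

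Of 11 genes reported to control transcription of the members, 4 passed the test between the media in wild type and 7 did not. WRKY40, a WRKY factor reported to repress ABI4 and ABI5, was at 1.15, 1.37 and 2.56 CPM in WT NM and at 119 and 66.7 CPM in WT WSM. WRKY18, which acts with it, was at 18.6, 15.7 and 18.9 CPM in WT NM and at 133 and 59.4 CPM in WT WSM. Both were far higher in WSM, with log2 fold changes of 5.73 ± 0.40 and 2.44 ± 0.30 (SE) and adjusted p of 5.79e-05 and 0.000967 by edgeR's quasi-likelihood test. MYB96, an activator reported for ABI4, rose by 2.72 ± 0.41 (log2, SE, adjusted p = 0.00281). BBX21, a B-box protein that holds back ABI5 expression, fell by 1.02 (log2, adjusted p = 0.0420). The list had 3 that rose and 1 that fell, with a median of 0.04, while 3.27% of all genes tested were called higher and 2.62% lower. The calls of WRKY40, WRKY18 and MYB96 held when any 1 library was left out. That of BBX21 was lost without any 1 of the 5 wild-type libraries, with an adjusted p of up to 0.250.

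Of 21 genes for partners and turnover of the factors, 2 rose and 1 fell in wild type. CPK32 and CPK4, calcium-dependent kinases that phosphorylate ABF factors, rose by 2.17 ± 0.34 and 1.30 ± 0.21 (log2, SE), with adjusted p of 0.00347 and 0.00451 by edgeR's quasi-likelihood test. Without WT WSM library 3 these adjusted p were 0.0630 and 0.0755. FYPP3, a phosphatase subunit that dephosphorylates ABI5, fell by 1.32 (log2, adjusted p = 0.0228), a call lost without any 1 of WT NM 2 and 3 and WT WSM 3 and 4. Of 9 genes for SnRK2 kinases and clade A phosphatases, 0 were called, with 0 at an unadjusted p under 0.05 and 0 by DESeq2. Of the 16 seed targets and 22 vegetative targets, 0 were called by DESeq2 or by edgeR with all libraries, with medians of -0.21 and -0.03. With only the wild-type libraries fitted, edgeR called 3 seed targets lower, and 3 vegetative targets higher and 2 lower. It also called 2 of the 9 kinase and phosphatase genes higher. Over all genes, that fit called 2777 higher and 3009 lower. In the edgeR fit of all libraries, 3 of the 22 vegetative targets had an unadjusted p under 0.05, and none of the 16 seed targets had. Root markers moved with the medium: 3 of 5 (PIP2;4, TIP2;3 and CASP1) fell. The summed level of the 5 was 133 to 147 CPM in WT NM and 44.5 to 59.99 CPM in WT WSM. The call of CASP1 was kept in 5 of 10 refits without 1 library. Those of PIP2;4 and TIP2;3 were lost without WT WSM library 3. In whole seedlings, fewer cells of a type and less RNA per cell cannot be told apart. The part of root markers in the values of the members was not tested.

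How the members differed between the media in the libraries labelled atg5 was asked next. edgeR's quasi-likelihood test called 1 of the 10 members, VAL1, against 7.86% of all genes tested, and DESeq2 also called VAL1 alone. At an unadjusted p under 0.05 there were 4 members, VAL1, AREB3, ABI3 and ABI4, and 4966 of all 19714 genes. Groups did not overlap for 4 of the 10, VAL1, EEL, AREB3 and ABF1, against 32.7% of all genes. The median log2 fold change was 0.03 over the members and -0.02 over all genes.

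VAL1 was at 10.7 and 10.6 CPM in atg5 NM and at 5.32, 4.78 and 5.46 CPM in atg5 WSM. All 3 WSM libraries lay below both NM libraries. The group means were 10.6 ± 0.0729 CPM (SD, n = 2) and 5.19 ± 0.360 CPM (SD, n = 3), and VAL1 fell by 1.04 on the log2 scale (SE 0.28, adjusted p = 0.0458 by edgeR's quasi-likelihood test). The adjusted p lay near the threshold and did not hold in most refits, although the log2 fold change stayed between -1.09 and -0.99 when 1 library was left out. It was 0.0386 without atg5 WSM library 1, and between 0.0578 and 0.155 without each of the other 9 libraries. Without both libraries with PREP1 counts the log2 fold change was -1.15 with an adjusted p of 0.109, and with only the libraries labelled atg5 it was -1.01 with 0.211. DESeq2 gave an adjusted p of 0.0146, and the authors' deposited table gives -1.03 with 0.0856. The 1165 genes within 10% of the exonic length of VAL1 had a median of -0.26 in this comparison.

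ABI3 was at 5.12 and 8.06 CPM in atg5 NM and at 5.71, 1.25 and 1.57 CPM in atg5 WSM. ABI4 was at 2.11 and 7.91 CPM in atg5 NM and at 3.15, 0.264 and 1.26 CPM in atg5 WSM. For both, WSM libraries 2 and 3 lay below both NM libraries and WSM library 1 lay within their range. The log2 fold changes were -1.43 ± 0.56 for ABI3 and -1.98 ± 0.81 for ABI4 (SE), with adjusted p of 0.139 and 0.154 by edgeR's quasi-likelihood test. Without WSM library 1 they were -2.22 and -2.73, with adjusted p of 0.00486 and 0.0381. Without both libraries with PREP1 counts, which left library 2 alone in atg5 WSM, they were -2.39 and -4.20, with 0.0215 and 0.0321. That fit assumes that the lone library varies like those of other groups.

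ABI5 was at 2.08 and 2.86 CPM in atg5 NM and at 8.87, 0.791 and 1.81 CPM in atg5 WSM. Library 1 held the highest ABI5 level of the 10 libraries and library 2 the lowest, and the coefficient of variation within the group was 115%. The log2 fold change was 0.41 ± 0.80 (SE, adjusted p = 0.792 in the same edgeR test) and turned to -0.93 (0.248) without library 1. These values rest on 45 counts of ABI5, 29 of ABI3 and 16 of ABI4 in library 1. In this library the seed transcripts CRA1 (a cruciferin), CRC, EM1 and EM6 were also highest within the group, at 83.0, 36.7, 9.06 and 7.49 CPM, against 3.76 to 8.56, 3.02 to 3.13, 0.461 to 1.02 and 1.05 to 1.49 CPM in libraries 2 and 3. Why library 1 stood apart was not tested.

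AREB3 was at 9.01 and 11.6 CPM in atg5 NM and at 17.5, 12.4 and 16.7 CPM in atg5 WSM. ABF1 was at 3.65 and 3.01 CPM in atg5 NM and at 5.52, 3.95 and 6.17 CPM in atg5 WSM. In both genes, library 2 was the lowest of the WSM libraries. EEL was at 7.64 and 4.95 CPM in atg5 NM and at 9.66, 10.5 and 8.09 CPM in atg5 WSM. In each of these 3 genes every WSM library exceeded both NM libraries, but none passed the test, with log2 fold changes of 0.59 ± 0.23, 0.63 ± 0.38 and 0.57 ± 0.28 (SE) and adjusted p of 0.136, 0.334 and 0.224. ABF2, ABF3 and ABF4 overlapped between the media, with log2 fold changes of -0.21, -0.00 and 0.06. ABF3 ranged from 38.2 to 74.9 CPM within atg5 NM alone.

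**Figure D3:**
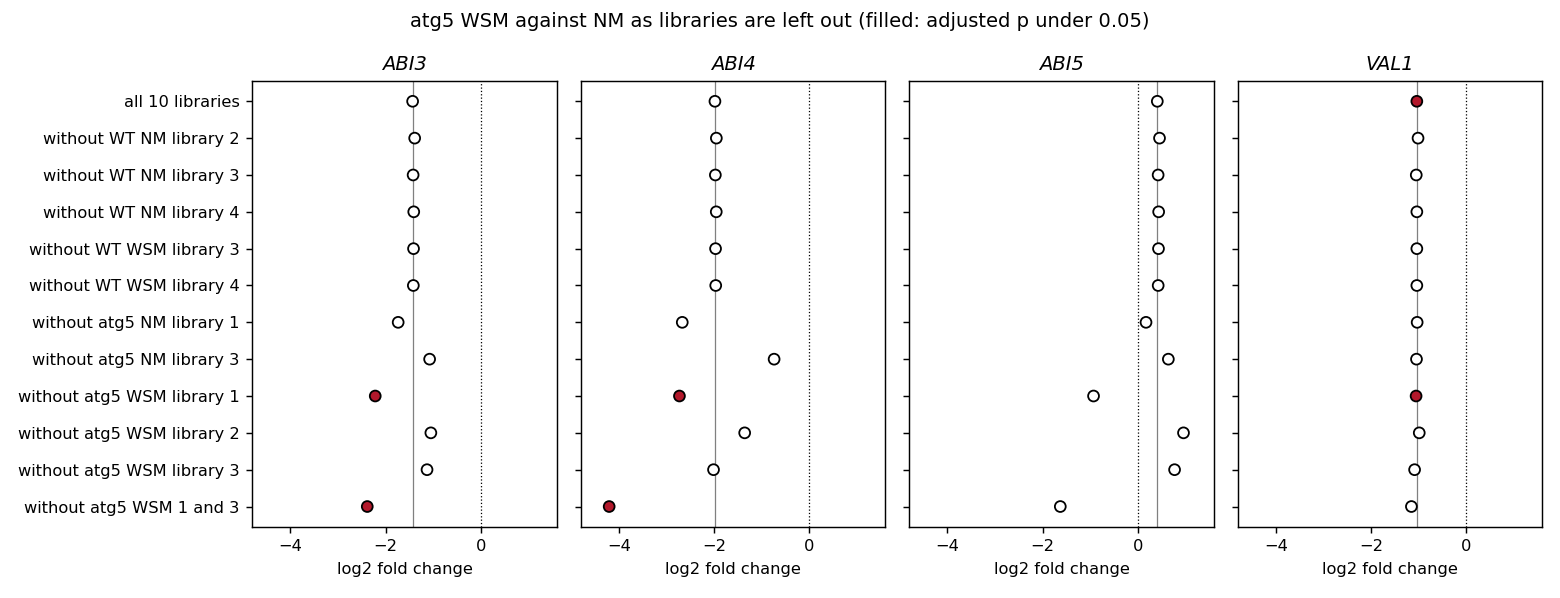
Log2 fold change in atg5 WSM against NM for ABI3, ABI4, ABI5 and VAL1 with all libraries and with 1 or 2 left out. Filled points have an adjusted p under 0.05, the dotted line marks 0 and the grey line the value with all libraries. Leaving out atg5 WSM library 1 moves ABI5 from 0.41 to -0.93 and ABI3 from -1.43 to -2.22, while VAL1 stays near -1.04.

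Among genes that act on the factors, WRKY40 was at 1.44 and 1.16 CPM in atg5 NM and at 90.0, 112 and 67.8 CPM in atg5 WSM. WRKY18 was at 19.0 and 16.1 CPM in atg5 NM and at 107, 103 and 79.6 CPM in atg5 WSM. They rose by 6.09 ± 0.47 and 2.46 ± 0.34 (log2, SE), with adjusted p of 9.51e-05 and 0.0015 by edgeR's quasi-likelihood test, and both calls held when any 1 library was left out. MYB96 rose by 2.60 ± 0.45 (adjusted p = 0.00598), which became 0.0707 without atg5 NM library 3. OST1, the SnRK2 kinase of guard cells, rose by 1.49 ± 0.39 (adjusted p = 0.0408). It was at 49.5 and 55.1 CPM in atg5 WSM libraries 1 and 3 and at 20.3 CPM in library 2, against 12.6 and 17.0 CPM in atg5 NM. Of the partner genes, AFP1, which promotes ABI5 breakdown, and CPK32 rose by 1.09 ± 0.29 and 1.29 ± 0.35 (adjusted p of 0.0444 and 0.0479), while the phosphatase subunit FYPP1 fell by 0.85 (adjusted p = 0.0332). Those of OST1, AFP1, CPK32 and FYPP1 held in 1 to 3 of the 10 refits without 1 library, with adjusted p of up to 0.225. Called higher were 3 of 11 regulators, 2 of 21 partners and 1 of 9 kinases and phosphatases, and 1 of 21 partners was called lower, against 5.22% of all genes higher and 2.64% lower. GBF4, another bZIP factor of the group, rose by 1.11 (adjusted p = 0.0444), a call kept in 1 of 10 refits. It is uncertain because an antisense gene covers 34.15% of its exonic bases. GBF4 was at 32.7 and 31.9 CPM in atg5 WSM libraries 1 and 3 and at 17.7 CPM in library 2, against 12.9 and 12.4 CPM in atg5 NM.

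Of the 22 vegetative targets, 5 rose and 0 fell in atg5 WSM, with a median log2 fold change of 0.61. Without both libraries that hold PREP1 counts, their median was 0.56. LTI30, a dehydrin, was at 13.0 and 20.7 CPM in atg5 NM and at 40.4, 41.0 and 58.6 CPM in atg5 WSM. GolS2, a galactinol synthase, was at 0.0670 and 0.194 CPM in atg5 NM and at 1.18, 1.98 and 1.73 CPM in atg5 WSM. Both rose in all 3 WSM libraries, by 1.47 ± 0.26 and 3.73 ± 0.67 (log2, SE, adjusted p of 0.00694 and 0.00741 by edgeR's quasi-likelihood test), also without any 1 library. The values of GolS2 rest on 2 and 4 counts in atg5 NM and on 6, 60 and 44 in atg5 WSM. With a block on the column number its adjusted p was 0.0571 by the same test. LEA4-5, whose promoter is shown above, rose by 1.48 ± 0.30 (adjusted p = 0.0147), or 0.119 without atg5 NM library 3. ERD10, another dehydrin, and RD29B, a desiccation-responsive gene, rose by 0.93 and 1.59 (adjusted p of 0.0370 and 0.0485), each kept in 2 of 10 refits. RD29B was named after its values were seen. With only the libraries labelled atg5 fitted, 0 of the 22 were called. Of the 16 seed targets, 0 rose and 1 fell, OLEO2, which encodes an oil-body protein, by 1.79 (adjusted p = 0.0389), kept in 3 of 10 refits. Their median was 0.78 with all libraries and -1.07 without both libraries that hold PREP1 counts. CYP707A2, an ABA hydroxylase gene reported as an ABI4 target, fell by 1.83 (adjusted p = 0.0281), kept in 5 of 10 refits, and was the 1 called of 5 such targets. Root markers fell here too, 2 of 5, from a sum of 93.3 to 133 CPM in atg5 NM to 43.9 to 83.7 CPM in atg5 WSM. The call of PIP2;4 was kept in 9 of 10 refits and that of TIP2;3 in 3 of 10. Green shoot markers had higher values in WSM in 4 of 4 genes, with a median of 0.86, 0 called by edgeR, 2 at an unadjusted p under 0.05 and 2 called higher by DESeq2. Their sum was 6697 to 7912 CPM in atg5 NM and 8051 to 15464 CPM in atg5 WSM. The part of either marker list in the values of the vegetative targets was not tested.

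Whether the 2 genotypes differed in their response to WSM was tested as the difference of the 2 log2 fold changes. edgeR called 0 of the 10 members, against 0% of all 19714 genes. At an unadjusted p under 0.05 there was 1 member, VAL1, and 2971 of all genes. DESeq2 called 0 members. VAL1 had a difference of -0.99 ± 0.40 (SE), with an unadjusted p of 0.0290 and an adjusted p of 0.288. ABI3 had -1.61 ± 0.78 (SE, adjusted p = 0.353), with a 95% interval from -3.31 to 0.09. Leaving out 1 library gave -2.40 (without atg5 WSM library 1) to -1.22 (without atg5 WSM library 2), and no refit called it. Genes within 10% of the exonic length had a median difference of -0.62 for VAL1 (1165 genes) and -0.54 for ABI3 (1482 genes). For ABI5 the interval ran from -2.62 to 2.14 and for ABI4 from -3.37 to 1.54, so differences of several-fold in either direction could not be detected. It was narrowest for AREB3, from -0.14 to 1.25. The fall of VAL1 in atg5 is therefore not shown to differ from its value of -0.05 ± 0.28 (SE) in wild type.

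How the genotypes differed in NM was compared next. edgeR called 0 of the 10 members, against 0.147% of all genes tested (0.0913% called higher and 0.0558% lower), and DESeq2 also called 0. ABF3 and ABF4 had unadjusted p of 0.0126 and 0.0162 by edgeR, and 2749 of all 19714 genes had one under 0.05. Groups did not overlap for 4 of the 10, VAL1, ABF3, ABF4 and AREB3, against 38% of all genes. ABF3 was at 30.3 to 34.8 CPM in the 3 WT NM libraries and at 38.2 and 74.9 CPM in the 2 of atg5, a log2 fold change of 0.79 ± 0.27 (SE, adjusted p = 0.222). ABF4 was at 10.4 to 11.9 CPM in WT NM and at 13.8 and 20.5 CPM in atg5 NM, a log2 fold change of 0.65 ± 0.23 (SE, adjusted p = 0.237). Library 3 of atg5 NM was the higher in both, and without it the log2 fold changes were 0.23 and 0.34. VAL1 was at 5.42 to 9.41 CPM in WT NM, below both atg5 libraries, with a log2 fold change of 0.57 ± 0.28 (SE, adjusted p = 0.388). The 1165 genes within 10% of its exonic length had a median of 0.39 in this comparison.

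For the 3 ABI genes the NM libraries of the genotypes overlapped. The log2 fold changes were 0.65 ± 0.53 for ABI3, 0.55 ± 0.74 for ABI4 and -0.27 ± 0.76 for ABI5 (SE). The 95% interval was -0.52 to 1.81 for ABI3 and -1.95 to 1.40 for ABI5.

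The genes these factors are known to activate in seeds showed a wide gap between the genotypes in the same libraries. The summed level of the 16 seed targets was 1652 to 2247 CPM in WT NM and 34.9 to 97.9 CPM in atg5 NM. CRA1 and CRC carried most of the sum in WT, and without them that of the other 14 was 128 to 159.9 CPM in WT NM and 27.9 to 61.3 CPM in atg5 NM. Of the 16, 15 had lower values in atg5, with a median log2 fold change of -2.75 against 0.03 over all genes. edgeR's test called 1 of them, OLEO2, which was at 9.82, 9.57 and 9.53 CPM in WT NM and at 1.00 and 1.36 CPM in atg5 NM. It fell by 3.03 (log2, SE 0.41, adjusted p = 0.0207), a call lost without any 1 of WT NM 2, 3 and 4 and atg5 NM 1, with an adjusted p of up to 0.119. At an unadjusted p under 0.05 there were 11 of the 16, and 2749 of all 19714 genes. DESeq2 called 10 of the 16 lower, and 299 of all genes lower. Once both atg5 WSM libraries that hold PREP1 counts were left out, which are in neither group compared here, the median of the 16 by edgeR was -2.76.

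CRC was at 514, 626 and 677 CPM in WT NM and at 2.91 and 11.8 CPM in atg5 NM. EM6, whose promoter is shown above, was at 14.6, 14.1 and 15.8 CPM in WT NM and at 1.07 and 1.26 CPM in atg5 NM. Neither was called with all libraries, with log2 fold changes of -6.37 ± 1.20 and -3.67 ± 0.69 (SE) and adjusted p of 0.0822 each. Both libraries that hold PREP1 counts are of WSM and in neither group of this comparison. Leaving them out acts here mainly through the shared spread per gene, so it does not check these 2 differences. Of the 22 vegetative targets 1 was called, LEA4-5, which was at 23.1, 21.9 and 35.3 CPM in WT NM and at 3.52 and 2.72 CPM in atg5 NM. It fell by 3.10 (log2, SE 0.32, adjusted p = 0.00765), and this call held without any 1 library. With a block on the column number the adjusted p was 0.186 by the same edgeR test, in a fit that called 0 of all genes here. RAB18, an ABA-responsive dehydrin, and RD29B, both named after their values were seen, had -3.64 and -2.39, with adjusted p of 0.0822 and 0.0819. Their list as a whole had a median of -0.17.

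The 5 embryo and dry seed markers, CRA1, CRC, OLEO1, EM1 and EM6, are all seed targets as well. Their sum was 1535 to 2147 CPM in WT NM, 1464 to 1958 CPM in WT WSM, 9.81 to 40.4 CPM in atg5 NM and 8.93 to 139.5 CPM in atg5 WSM. All 5 had lower values in atg5 NM than in WT NM, and none was at 0 in every library of a group. In NM, 0 of them were called by edgeR, 5 had an unadjusted p under 0.05 and DESeq2 called 5 lower. How far seed remains or delayed embryo tissue in the WT libraries enter the values of the ABI genes was not tested. Green shoot markers had lower values in atg5 NM in 4 of 4 genes, with a sum of 11064 to 12260 CPM in WT NM, 8390 to 14281 CPM in WT WSM, 6697 to 7912 CPM in atg5 NM and 8051 to 15464 CPM in atg5 WSM. In NM, 0 of the 4 were called by edgeR, 2 had an unadjusted p under 0.05 and DESeq2 called 1 lower. Of 8 genes for repressors and chromatin factors that act on the embryo programme (HSL1, VAL3, HD1, HDA6, MSI1, SWN, CLF and LHP1), 0 were called in NM by edgeR or DESeq2. In NM 4 of them had an unadjusted p under 0.05, as did 2749 of all 19714 genes, and their median was 0.63. Of 5 chlorophyll breakdown targets, 0 were called in the 5 comparisons by the edgeR fit of all libraries, with 0 at an unadjusted p under 0.05 and 0 called by DESeq2. With only the wild-type libraries fitted, 1 was called higher between the media, as were 2777 of all genes. The embryo regulators LEC1, LEC2 and FUS3 were not analysed here.

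**Figure D4:**
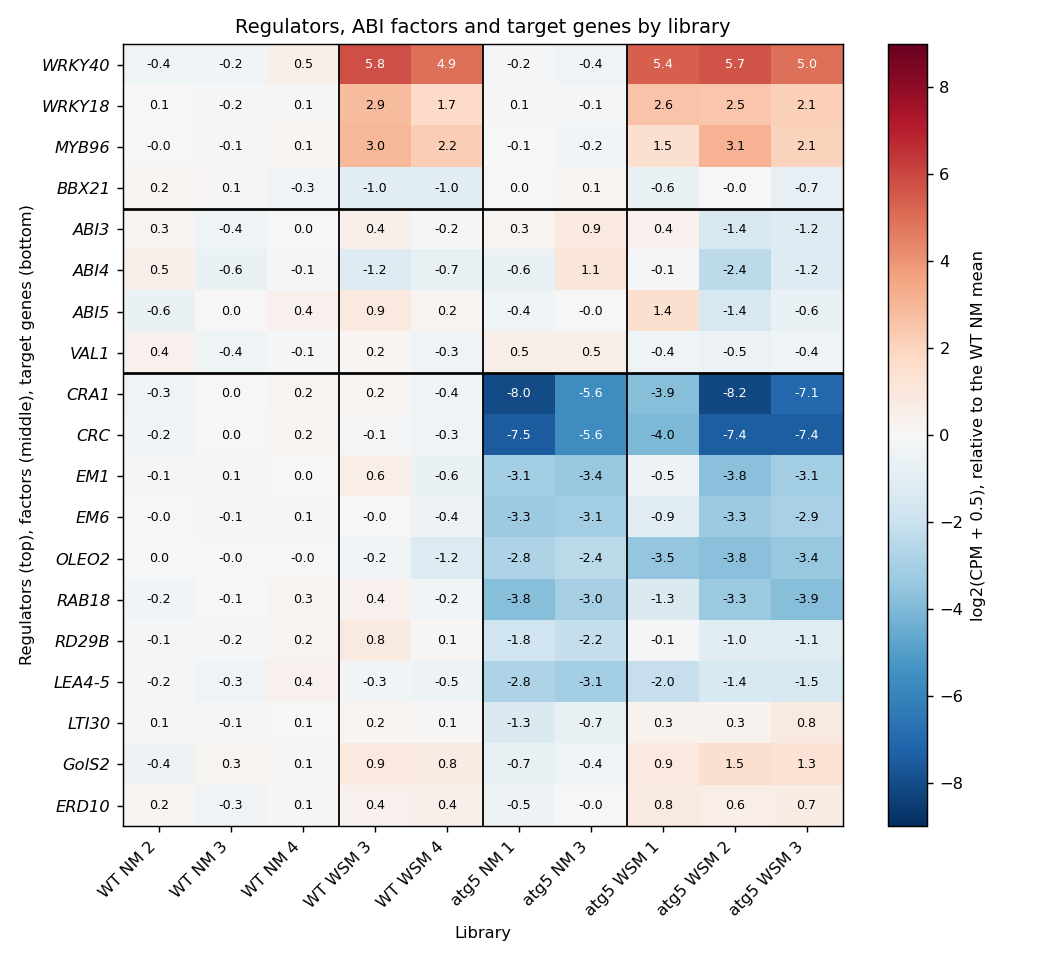
log2(CPM + 0.5) relative to the WT NM mean in each library (columns) for regulators of the ABI genes (top), ABI3, ABI4, ABI5 and VAL1 (middle) and target genes (bottom). Red is higher and blue lower. WRKY40, WRKY18 and MYB96 follow the medium in both genotypes, CRA1, CRC and OLEO2 are low in all 5 libraries labelled atg5, and ABI3, ABI4 and ABI5 vary within groups.

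The genotypes were last compared in WSM. edgeR called 0 of the 10 members, against 0.0355% of all genes tested (0.00507% called higher and 0.0304% lower), with 0 at an unadjusted p under 0.05 and 0 by DESeq2. Groups did not overlap for 5 of the 10, EEL, ABF2, ABF3, ABF4 and VAL1, against 27.4% of all genes. ABF3 had a log2 fold change of 0.40 ± 0.27 and ABF4 of 0.34 ± 0.24 (SE), both with higher atg5 values as in NM. VAL1 had -0.42 ± 0.29 and EEL -0.43 ± 0.27 (SE). ABI3 had -0.96 ± 0.57 (SE, adjusted p = 0.509), and its groups overlapped through atg5 WSM library 1. Without that library it was -1.75, without atg5 WSM library 2 it was -0.57 and without WT WSM library 3 also -0.57, with adjusted p of 0.129, 0.594 and 0.889 by the same test. OLEO2 was at 8.13 and 3.79 CPM in WT WSM and at 0.394, 0.231 and 0.432 CPM in atg5 WSM. It was the 1 of 16 seed targets called, lower by a log2 of 4.12 (SE 0.44, adjusted p = 0.0106), and the call was lost without WT WSM library 3 or atg5 WSM library 3, with an adjusted p of up to 0.103. The median of the 16 was -1.85 with all libraries, with 11 lower and 5 higher in atg5. Without CRA1 and CRC, the sum of the other 14 was 89.5 to 126 CPM in WT WSM and 35.5 to 178.9 CPM in atg5 WSM. These ranges overlapped. Without both libraries that hold PREP1 counts, which left library 2 alone in atg5 WSM, the median was -3.15. CRC was then at -7.40 and EM6 at -3.59. Those 2 libraries differed from each other: CRA1 was at 83.0 CPM in library 1 and at 8.56 CPM in library 3.

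Across the 10 libraries, Pearson's r of log2 CPM between 2 members was highest for ABF3 and ABF4, at 0.86, followed by ABI3 and ABI4 at 0.81, ABI3 and VAL1 at 0.72 and ABI3 and ABI5 at 0.65. It was lowest for ABI4 and EEL, at -0.64. Of 45 pairs, 7 were above 0.5 and 5 below -0.5, with a median of 0.03. These are descriptions, since the 2 genes of a pair share library, depth and group. Over the same libraries, the gene most like ABI3 by this measure was AT5G02530 (0.93), the gene most like ABI4 was RD21B (0.96), that for ABI5 was HMT2 (0.89), with AT3G02480 next at 0.88, and that for EEL was AT5G48370 (0.95). For AREB3 it was AT1G25275 (0.97), for ABF1 AT5G49400 (0.96), for ABF2 AT5G09225 (0.88), for ABF3 CIPK1 (0.94), for ABF4 AT2G36580 (0.97), with ERD1 and ADH1 next at 0.94 each, and for VAL1 SS1 (0.96).

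ABF4 lies on the same arm of chromosome 3 as PREP1, PARC6 and ATG2, at distances of 54.9, 49.8 and 38.2 kb. PREP1 was at 61.6 to 106 CPM in WT libraries, at 68.8 and 94.7 CPM in atg5 WSM libraries 1 and 3, and at 0 to 0.132 CPM in the other 3. PARC6, a chloroplast division gene, was at 6.30 to 13.9 CPM in WT libraries, at 2.96 and 6.87 CPM in atg5 WSM libraries 1 and 3, and at 0 counts in the other 3. ATG2, an autophagy gene, was at 23.8 to 31.1 CPM in those 3 libraries and at 3.13 to 10.03 CPM in the other 7. ABF4 did not follow this split: it was at 13.8, 20.5 and 14.9 CPM in the 3 libraries without PREP1 counts and at 17.9 and 20.8 CPM in the 2 with them, and these ranges overlapped. Of the 9 other genes within 20 kb of ABF4 in both tables, 0 were called in any of the 5 comparisons by edgeR. The nearest, AT3G03815, overlaps ABF4 on the other strand and had a log2 fold change of 0.80 in NM, beside 0.65 for ABF4. None of the 5 comparisons grouped the libraries by PREP1 counts. LOH2, 15.4 kb away, was at 4.89, 3.204 and 2.999 CPM in the 3 libraries without PREP1 counts. It was at 1.18 and 0.864 CPM in the 2 with them. AT3G19330 was also higher in those 3 libraries, AT3G19320 and AT3G19340 were lower in them, and the other neighbours overlapped. Whether the split reaches these genes was not tested.

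**Figure D5:**
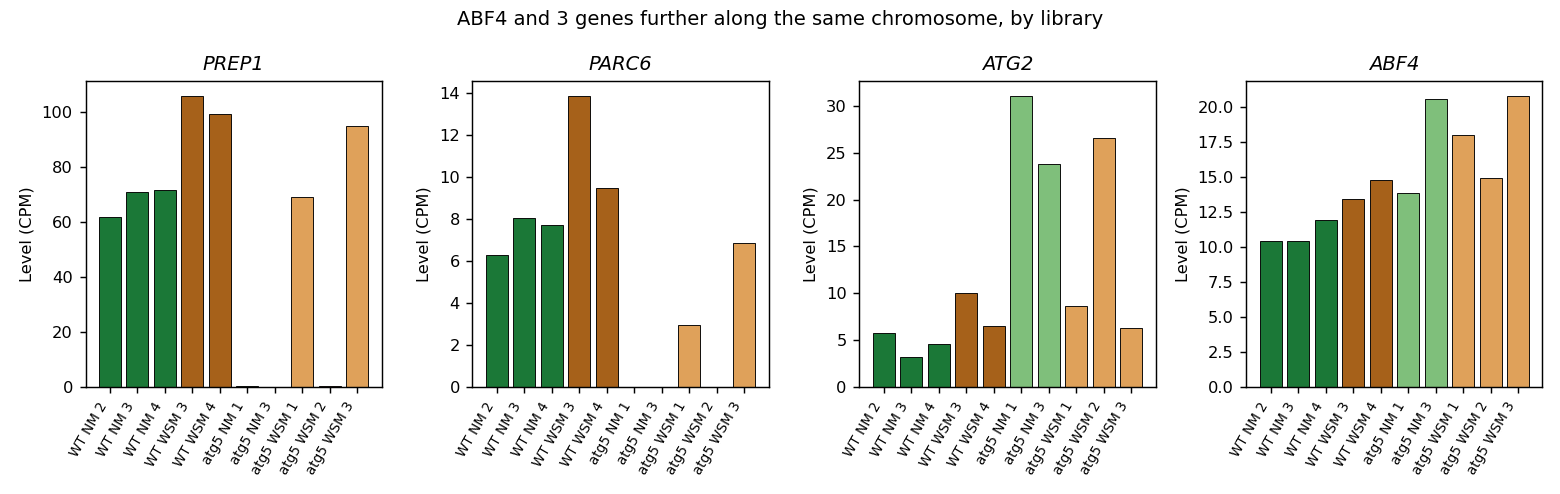
CPM per library of PREP1, PARC6, ATG2 and ABF4 on linear axes from 0, with bars coloured by group. PREP1 and PARC6 are at or near 0 in atg5 NM 1 and 3 and atg5 WSM 2, where ATG2 is at 23.8 to 31.1 CPM, while ABF4 lies between 13.8 and 20.8 CPM in all 5 libraries labelled atg5.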

How the data were processed

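Per the labels' protocols, a stranded mRNA kit and Illumina sequencing were used. The submitters' processing notes name bcl2fastq, Bowtie2, bedtools, DESeq2 and TAIR10, with no settings. The authors deposited raw counts per gene, in a table for each genotype. Per the file headers, each table also holds the authors' mean normalized signal, log2 fold changes with test scores, and p-values. The 10 deposited columns of per-library normalized values were not used. Column numbers differ from the sample titles, so a column was given its group only. Of 12 labelled samples, 2 have no column analysed here. Overlapping genes are uncertain because counting by strand is not stated.

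One edgeR 4.0.16 quasi-likelihood model (R 4.3.3, with limma 3.58.1) was fitted to the counts of 19714 genes, scaled by TMM, as 4 group means, leaving 6 residual degrees of freedom. The filter filterByExpr removed 0 genes. P-values were adjusted by Benjamini-Hochberg over all genes, and a call is an adjusted p under 0.05. Standard errors come from the F statistic. Alternatives were DESeq2 1.42.0, RLE scaling, no filter, a mean of at least 5 CPM, fits of only the compared groups, leaving out rRNA-region genes, leaving out 2 libraries chosen by rRNA content or by PREP1 counts, a block on the column number, and leaving out each library. The fit was also run on simulated counts that held no outlying library, and the outcome is not used here. Positions, lengths and sequences come from RefSeq TAIR10.1, joined by locus (20780 of 20780 row names matched).

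The members and 12 gene lists (113 of 134 entries in both tables) were chosen with earlier results of these data known. Lists were counted, not tested. Named are all members, up to 4 called genes per list and comparison by smallest adjusted p, and the gene or genes most like each member (Pearson's r of log2 CPM with prior count 2, mean of at least 5 CPM, under 20% exon overlap, over 100 kb away). CRA1, CRC, EM1, EM6, RAB18 and RD29B were chosen after their values were seen.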

Additional observations from a re-analysis of the deposited data

How the results depend on the processing

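Over the alternative values of the members' log2 fold changes, 852 kept direction and side of the threshold, 50 reversed, 12 lost the call and 6 gained it. With only the compared groups fitted, 1 member was called in wild type (EEL) and 0 in atg5. The 2 rRNA-rich libraries were WT NM 2 and atg5 WSM 1. The refits without them and without the PREP1 libraries thus both left out atg5 WSM library 1, and are not separate checks of it. In atg5 WSM against NM, 2 were called without the 2 rRNA-rich libraries (VAL1 and ABI3), 2 without both libraries that hold PREP1 counts (ABI3 and ABI4), 0 with the replicate block, and 0 to 3 without 1 library, the 3 being VAL1, ABI3 and ABI4 without atg5 WSM library 1. The other 3 comparisons called 0 members throughout. Reversals were all of uncalled values, and their cause was not tested. In wild type, AREB3 was at -0.033 and VAL1 at 0.051 under the block, and VAL1 at 0.19 without the rRNA-rich libraries. In atg5, ABI5 was at -0.92 without the rRNA-rich libraries, and without the PREP1 libraries ABI5 was at -1.63, ABF2 at 0.063 and ABF4 at -0.20. ABF3 was at 0.012 with only the compared groups and at 0.062 under the block. For the difference of responses, ABI5 was at 0.30 and ABF2 at -0.20 under the block, and ABF1 at -0.13 without the PREP1 libraries. Between genotypes, ABF1 was at -0.014 in NM without rRNA-region genes, and in WSM AREB3 was at -0.036 and ABF1 at -0.11 without the PREP1 libraries. Leaving out 1 library gave these ranges in wild type: ABI3 -0.19 to 0.48, AREB3 -0.0149 to 0.0805, ABF1 -0.044 to 0.69 and VAL1 -0.30 to 0.19. In atg5 they were ABI5 -0.93 to 0.96, ABF2 -0.45 to 0.078, ABF3 -0.41 to 0.56 and ABF4 -0.20 to 0.37. For the difference they were ABI4 -1.67 to 0.33, ABI5 -1.57 to 0.33, EEL -0.45 to 0.17, ABF1 -0.0546 to 0.68, ABF2 -0.10 to 0.43, ABF3 -0.80 to 0.17 and ABF4 -0.57 to 0.0046. In NM they were ABI4 -0.68 to 1.22, ABI5 -0.52 to 0.027, EEL -0.61 to 0.0156, ABF1 -0.22 to 0.20 and ABF2 -0.0545 to 0.47. In WSM they were ABI4 -1.11 to 0.27, ABI5 -1.85 to 0.052 and ABF1 -0.034 to 0.70. The column numbers were not taken to pair libraries, since the deviations of same-numbered libraries had r of 0.124 and 0.207 within wild type but -0.305 and -0.0135 within atg5. Over all genes, DESeq2 called 998 higher and 1173 lower in wild type and 1681 and 978 in atg5. With only the compared groups these were 2777 and 3009, and 312 and 8. DESeq2 called 296 higher and 299 lower between genotypes in NM, 281 and 62 in WSM, and 259 and 155 for the difference. Low counts limit ABI3, ABI4 and ABI5 most, with as few as 8 counts in a library.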
